A study of Homo sapiens with 6 samples.

Results

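Chemokines and other target genes of the transcription factor NF-κB were compared between methotrexate-resistant and methotrexate-sensitive HT29 colon cancer cells. Methotrexate (MTX) is an antifolate drug, and HT29 is a human colon adenocarcinoma cell line. The group holds 10 genes, chosen by name with earlier results of these data known. They are the chemokines CXCL1, CXCL2, CXCL3, CXCL8 (also listed as IL8) and CCL20, the feedback inhibitors NFKBIA and TNFAIP3, and the targets BIRC3, LCN2 and IL32. The platform annotation gave 9 of the 10 genes a probe set of their own, with 14 probe sets in all, out of 19775 named genes and 54613 probe sets on the array. It paired no probe set with BIRC3, which was not analysed here. Of the 9 genes, 8 passed the filter on dim signals (a mean of at least the array median over the 6 arrays) and were tested, and IL32 did not.

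The tested cells were HT29 cells resistant to 10 μM MTX, obtained by growth in stepwise concentrations of the drug and kept in medium without glycine, hypoxanthine and thymidine, with dialyzed serum. The cells they were set against were MTX-sensitive HT29 cells, kept with undialyzed serum in Ham's F12 medium. Resistance and medium therefore cannot be told apart. No source used here names an inflammatory stimulus for either culture. RNA of 3 samples of each cell line was hybridized to Affymetrix HG U133 PLUS 2.0 arrays, and no source used here says that the 3 samples were separate cultures, so p-values measure only how these samples vary, and that variation may be technical.

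NF-κB is a family of transcription factors held inactive in the cytoplasm by IκB proteins. Signals from receptors of TNF, interleukin 1 or bacterial products activate an IκB kinase, IκB is degraded, and NF-κB enters the nucleus and switches on genes of inflammation and survival. In the intestinal epithelium these targets include chemokines, which call leukocytes to the mucosa, and antimicrobial proteins. Some targets are inhibitors of the pathway itself and close a negative feedback loop.

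In the resistant cells 3 of the 8 tested genes were lower, CCL20, TNFAIP3 and LCN2, and none was higher. The neutrophil chemokines CXCL1, CXCL2, CXCL3 and CXCL8 and the inhibitor NFKBIA did not pass the test. CCL20 was 7.91-fold lower, TNFAIP3 3.60-fold lower and LCN2 2.61-fold lower. CCL20 and TNFAIP3 are in the list of genes that the study selected on these arrays, so that their direction is not independent evidence. Among all 11835 genes tested in the same way, 22.5% were lower and 12.4% were higher at an adjusted p under 0.05 from limma (2659 and 1472 genes). The split depends on the scaling, with 2227 lower and 2501 higher after quantile normalization, and 2534 lower and 2296 higher with scaling to the median of the filtered probe sets.

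The promoters are shown because 7 of the 8 tested genes, whether they fell or did not pass, carry the NF-κB consensus close to their start. Sequences are from RefSeq promoter windows of GRCh38.p14, which reach from 250 bases before to 50 bases after each gene's start, and all 10 genes have such a window. Each line gives the stretch around the match on the gene's own strand, 5′ to 3′, with matches to the κB consensus, and in CXCL8 the letters GGAATTTCC, in capitals.
CCL20 (chr2:227813741-227813794, plus strand, lower in resistant cells): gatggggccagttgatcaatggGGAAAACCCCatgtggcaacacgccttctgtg
TNFAIP3 (chr6:137867170-137867235, plus strand, lower in resistant cells): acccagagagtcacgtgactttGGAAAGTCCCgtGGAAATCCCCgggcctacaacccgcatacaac
LCN2 (chr9:128149256-128149309, plus strand, lower in resistant cells): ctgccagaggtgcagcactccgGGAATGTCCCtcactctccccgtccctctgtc
CXCL1 (chr4:73869292-73869346, plus strand, did not pass): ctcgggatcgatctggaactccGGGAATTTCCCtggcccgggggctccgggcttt
CXCL2 (chr4:74099241-74099295, minus strand, did not pass): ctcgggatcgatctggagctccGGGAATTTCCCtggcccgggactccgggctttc
CXCL3 (chr4:74038736-74038790, minus strand, did not pass): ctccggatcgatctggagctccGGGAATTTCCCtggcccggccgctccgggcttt
CXCL8 (chr4:73740456-73740508, plus strand, did not pass): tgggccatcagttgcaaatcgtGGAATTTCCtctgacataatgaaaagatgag
NFKBIA (chr14:35404799-35404852, minus strand, did not pass): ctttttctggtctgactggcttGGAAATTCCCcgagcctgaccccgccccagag

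The κB consensus, searched on both strands, was found in the windows of all 3 genes that were lower and of 4 of the 5 genes that did not pass, the exception being CXCL8. It was found in 11.3% of all 35116 promoter windows. The genes were chosen by name as NF-κB targets, so their share of matches is no test against all windows. The letters GGAATTTCC, also searched on both strands and overlapping the consensus in 4 of the genes, were found in the windows of all 5 genes that did not pass and of none of the 3 that were lower, against 0.461% of all windows. These letters were chosen after the windows and the results had been seen, and CXCL1, CXCL2 and CXCL3 are closely related copies. A match is a description of the sequence, not a measured binding site.

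All levels below are scaled signals, which are MAS5 signals divided by the median of their array, so that 1 is the array median. Differences are log2 fold changes of resistant over sensitive cells, with adjusted p-values from limma over the 11835 genes tested, each read from its brightest probe set. Over all these genes the median difference was -0.10, and with quantile normalization it was 0.02. The median of the 8 tested genes of the group was -0.40.

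CCL20 is the ligand of the receptor CCR6 and attracts dendritic cells and lymphocytes to the mucosa. Its scaled signal was 0.436, 0.394 and 0.195 in resistant cells, against 3.32, 1.79 and 2.79 in sensitive cells. All 3 resistant arrays lay under the array median and all 3 sensitive arrays above it, with no overlap. The log2 fold change was -2.98 (standard error 0.61, adjusted p = 0.00016 from limma), and only 0.591% of tested genes had a change this low or lower. CCL20 passed the filter through its signal in sensitive cells alone, so the size of the change rests on dim signals in resistant cells, and no detection calls were used here. With 1 added to each scaled signal before the log, the change was -1.42.

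The genes whose log2 profile over the 6 arrays lay nearest to that of CCL20 were DHRS2, TAP1 and HES6. DHRS2 encodes a short-chain dehydrogenase, TAP1 a subunit of the peptide transporter of antigen presentation and HES6 a transcription factor of the HES family. After centring on the sensitive arrays, their root mean square distances from CCL20 were 0.21, 0.24 and 0.27 on the log2 scale. Most of this likeness is the difference between the groups, since their log2 fold changes were -3.10, -3.20 and -3.25.

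CXCL1, CXCL2 and CXCL3 are neighbouring genes for chemokines that attract neutrophils through the receptor CXCR2. CXCL1 had scaled signals of 2.82, 3.84 and 3.96 in resistant cells, against 3.84, 2.88 and 2.58 in sensitive cells. CXCL3 had 2.17, 1.78 and 1.92 in resistant cells, against 2.79, 2.39 and 1.81 in sensitive cells. The groups overlapped for both genes, with log2 fold changes of 0.20 for CXCL1 (95% interval -0.30 to 0.69, adjusted p = 0.58 from limma) and -0.24 for CXCL3 (95% interval -0.86 to 0.39, adjusted p = 0.60 from limma).

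CXCL2 was the only chemokine of the group besides CCL20 whose groups did not overlap, as was so for 46.2% of all tested genes (29.3% lower and 16.8% higher). Its brightest probe set had scaled signals of 1.89, 1.76 and 2.60 in resistant cells, against 2.81, 2.81 and 3.58 in sensitive cells. The log2 fold change of -0.57 did not pass (standard error 0.28, adjusted p = 0.11 from limma). That probe set is of the kind Affymetrix marks with x, whose probes may also match related transcripts, so that its signal is uncertain. The same holds for the brightest probe sets of CXCL8 and, among the other pathway genes named below, of TLR4, NFKBIB and CFLAR. Those of CXCL1 and CXCL3 do not carry the x. Matching to related transcripts was not tested here. The other CXCL2 probe sets, both under the array median on all 6 arrays, were not tested.

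CXCL8, or interleukin 8, attracts neutrophils through CXCR1 and CXCR2. Its brightest probe set had scaled signals of 5.69, 10.9 and 9.53 in resistant cells, against 6.87, 7.59 and 6.12 in sensitive cells. The spread was wider in resistant cells (SD 2.72, against 0.735 in sensitive cells, n = 3 each), where replicate 1 was below and replicates 2 and 3 above all sensitive arrays. The log2 fold change of 0.30 did not pass (95% interval -0.11 to 0.70, adjusted p = 0.26 from limma). Without resistant replicate 1 it was 0.58 with an adjusted p of 0.0092 from limma, so this array decided the call.

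The other CXCL8 probe set pointed the other way. It had scaled signals of 1.74, 4.95 and 2.75 in resistant cells, against 3.20, 3.06 and 4.32 in sensitive cells, and did not pass, at -0.28 on the log2 scale (adjusted p = 0.51 and standard error 0.29 from limma over all probe sets, of which 19.5% were lower and 9.52% were higher). Resistant replicate 2 was the highest and replicate 1 the lowest of the resistant arrays at both probe sets. With the mean of both probe sets the log2 fold change of CXCL8 was 0.01 (adjusted p = 0.98 from limma).

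**Figure D1:**
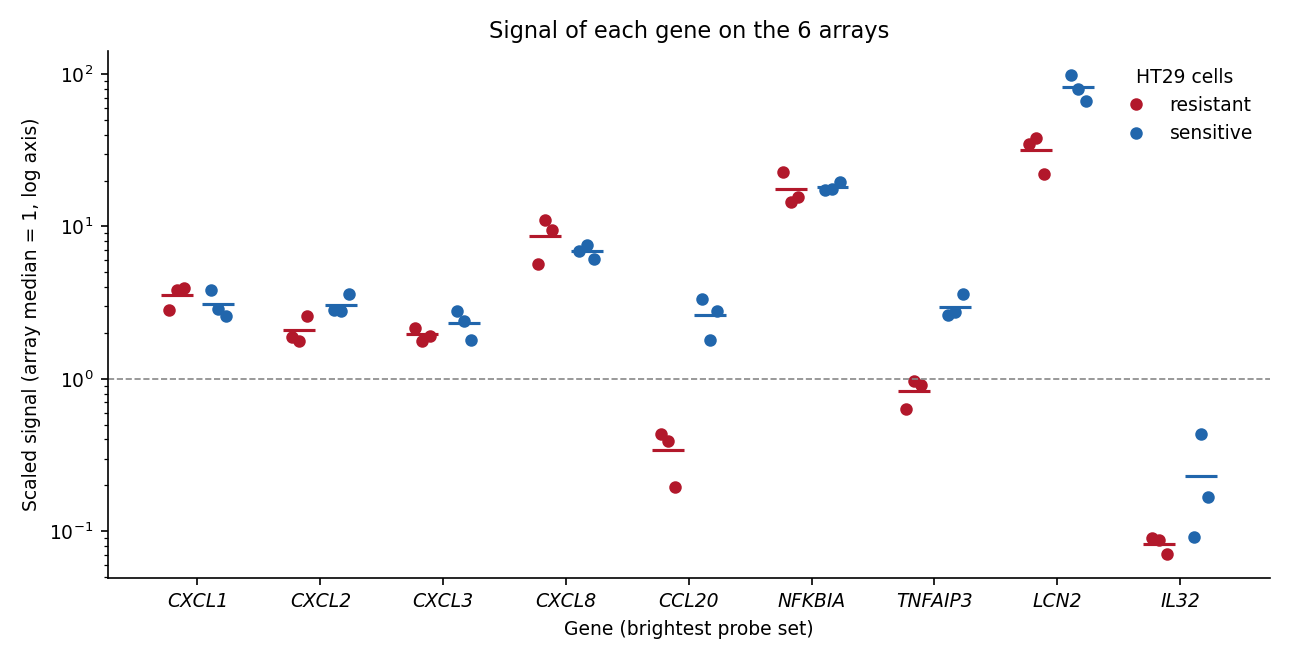
Scaled signal (array median = 1, log axis) of the brightest probe set of 9 genes on the 3 resistant (red) and 3 sensitive (blue) arrays, with short lines at the group means and a dashed line at the array median. The resistant arrays lie under all sensitive arrays for CXCL2, CCL20, TNFAIP3, LCN2 and IL32, and the groups overlap for CXCL1, CXCL3, CXCL8 and NFKBIA.

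Of the feedback inhibitors, TNFAIP3 was lower and NFKBIA did not pass. NFKBIA encodes IκBα, which binds NF-κB and keeps it in the cytoplasm. Its scaled signal was 22.8, 14.4 and 15.5 in resistant cells, against 17.3, 17.6 and 19.5 in sensitive cells. Resistant replicate 1 was above all sensitive arrays and the other two resistant arrays were below them. The log2 fold change was -0.07 (95% interval -0.43 to 0.28, adjusted p = 0.78 from limma), and its sign turned after quantile normalization, with scaling to the median of the filtered probe sets, and without resistant replicate 2 or 3. A second NFKBIA probe set was under the filter.

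TNFAIP3 encodes A20, an enzyme that edits ubiquitin chains on signalling proteins and shuts the pathway off. It had scaled signals of 0.632, 0.963 and 0.905 in resistant cells, against 2.61, 2.75 and 3.59 in sensitive cells, with no overlap. The log2 fold change was -1.85 (standard error 0.39, adjusted p = 0.00022 from limma) and 1.72% of tested genes had a change this low or lower. With 1 added to each scaled signal it was -1.12. The other TNFAIP3 probe set, under the filter and not tested, had 0.165, 0.163 and 0.515 in resistant cells, against 1.12, 1.59 and 1.88 in sensitive cells, again with no overlap. TNFAIP3, like CCL20, was above the array median only in sensitive cells.

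LCN2 encodes lipocalin 2, a secreted protein that binds the iron carriers of bacteria. It was bright in both cell lines, with scaled signals of 34.97, 38.2 and 22.2 in resistant cells, against 99.1, 79.9 and 66.4 in sensitive cells. The brightest resistant array was still well under the dimmest sensitive array. The log2 fold change was -1.38 (standard error 0.17, 95% interval -1.72 to -1.05, adjusted p = 1.5e-08 from limma), and it lay between -1.54 and -1.14 when each array was left out. Of all tested genes 2.92% had a change this low or lower. Its fall was under the 3-fold threshold of the study, which CCL20 and TNFAIP3 passed. Of all tested genes 2.19% were lower and 1.94% higher past that threshold.

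IL32, which encodes a cytokine made by epithelial and immune cells, was dim on every array. Its scaled signal was 0.0902, 0.0875 and 0.0710 in resistant cells, against 0.0915, 0.433 and 0.169 in sensitive cells. The groups did not overlap, but the lowest sensitive array was close to the highest resistant one. Without the filter, when 11.4% of all genes were lower and 6.11% higher, its log2 fold change was -1.19 (standard error 0.94, adjusted p = 0.46 from limma).

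**Figure D2:**
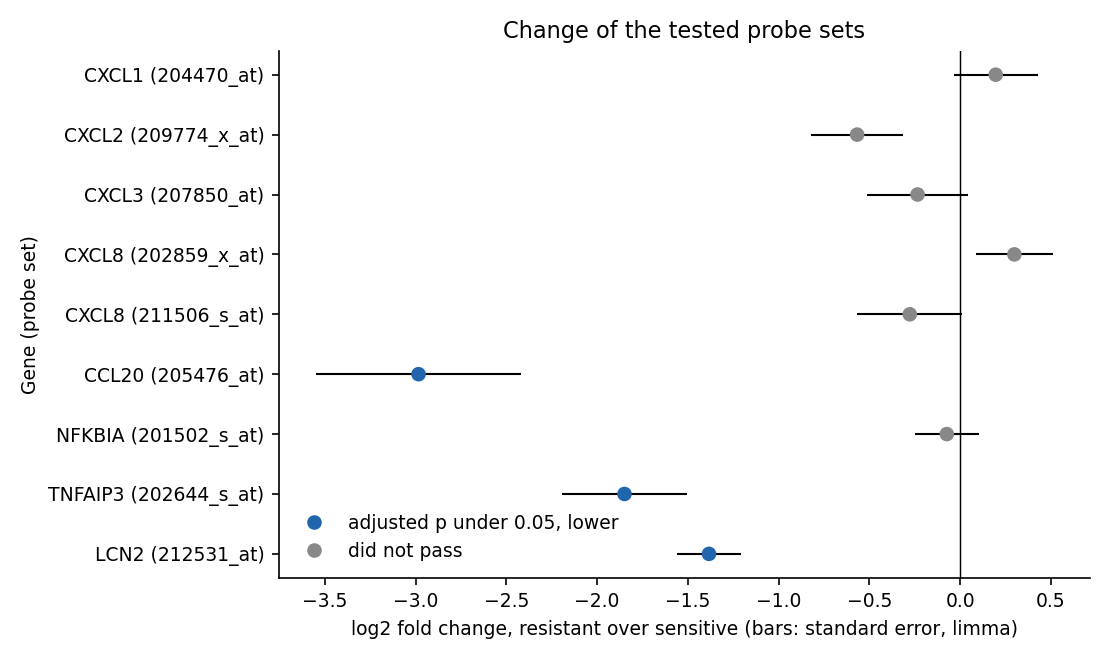
Log2 fold change of the 9 tested probe sets of the group, resistant over sensitive (3 arrays per cell line). Bars are standard errors of the limma fit over all probe sets. CCL20, TNFAIP3 and LCN2 (blue) lie at -2.98, -1.85 and -1.38, and the other probe sets (grey), including both of CXCL8, lie between -0.57 and 0.30 and did not pass.

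Leaving out any 1 array kept the calls of CCL20, TNFAIP3 and LCN2 and added none but that of CXCL8. The methods' t-test with unequal variances ended all 3 calls (adjusted p = 0.069 for CCL20, 0.060 for TNFAIP3 and 0.10 for LCN2), and that with equal variances ended the call of LCN2 (adjusted p = 0.057), each with n = 3 against 3 and Benjamini-Hochberg adjustment over all genes, as run beside the limma fit.

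**Figure D3:**
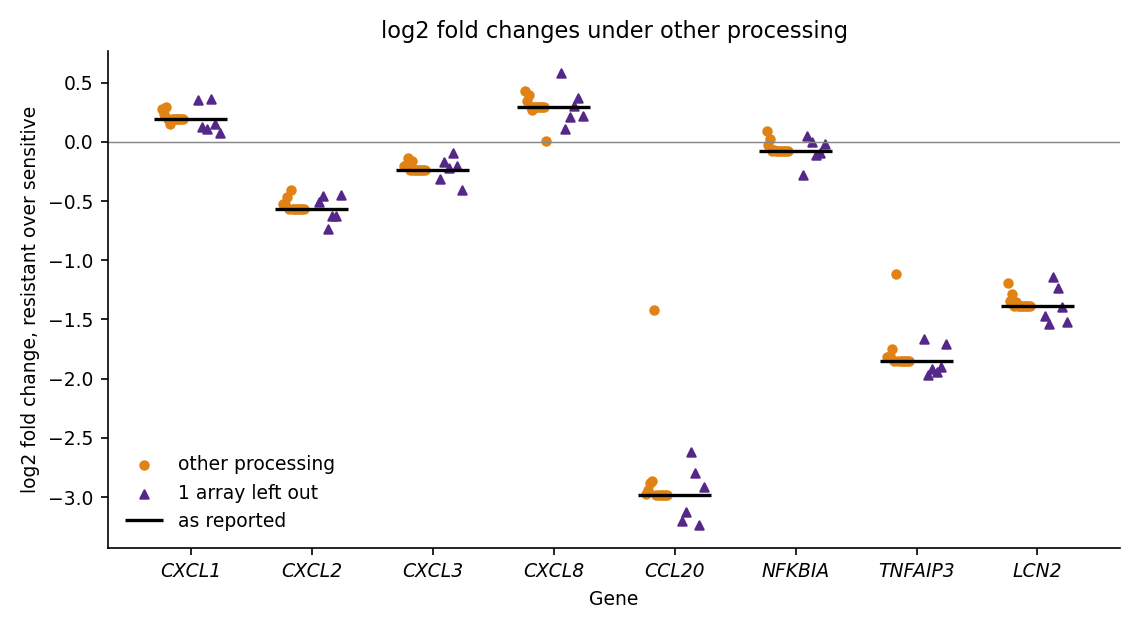
Log2 fold change, resistant over sensitive, for the 8 tested genes as reported (black lines), under other processing (orange dots) and with 1 array left out (purple triangles). CCL20, TNFAIP3 and LCN2 stay under -1 throughout, and NFKBIA changes sign.

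A wider list of 113 genes of the pathway, sorted by role, was read in the same fit. Of these, 104 had a probe set of their own and 66 were tested. In resistant cells 15 of the 66 were lower (22.7%, against 22.5% of all tested genes) and 9 were higher (13.6%, against 12.4%), so both shares were close to those of all genes. This balance depends on the scaling. After quantile normalization 10 were lower and 16 higher (2227 and 2501 of all genes). With scaling to the median of the filtered probe sets 13 were lower and 16 higher (2534 and 2296 of all genes). The median log2 fold change of the 66 genes was -0.07.

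None of the 5 tested genes for DNA-binding subunits of NF-κB passed. RELA was at -0.18 (95% interval -0.53 to 0.16), NFKB1 at -0.36 (-0.70 to -0.03), REL at -0.31 (-0.67 to 0.05), NFKB2 at 0.18 (-0.27 to 0.62) and RELB at -0.86 (-1.63 to -0.09). Their adjusted p-values from limma were 0.43, 0.087, 0.17, 0.57 and 0.077. RELB had scaled signals of 1.02, 1.39 and 1.09 in resistant cells, against 2.43, 1.96 and 1.94 in sensitive cells, which did not overlap. The groups of NFKB1 and REL did not overlap either, also with lower signals in resistant cells, as was so for 29.3% of all tested genes. RELB passed with limma without the trend (adjusted p = 0.014) and with the mean of all probe sets (adjusted p = 0.045 from limma), and NFKB1 passed without resistant replicate 1. After quantile normalization RELA was at -0.01, NFKB1 at -0.20, REL at -0.18 and NFKB2 at 0.26. RELB stayed at -0.83 (adjusted p = 0.059 from limma). CHUK, which encodes a catalytic subunit of the IκB kinase, was higher at 0.45, though its groups overlapped. IKBKG, which encodes the regulatory subunit of that kinase, was lower at -0.46, and IKBKB did not pass (0.09, adjusted p = 0.80 from limma).

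Of 14 tested adaptors and kinases, the IκB kinase subunits included, 5 were lower and 1, CHUK, was higher. These were 35.7% and 7.14%, against 22.5% and 12.4% of all tested genes. IRAK1, a kinase that carries signals from interleukin 1 and Toll-like receptors, had scaled signals of 68.9, 54.0 and 65.3 in resistant cells, against 246, 242 and 238 in sensitive cells. The gap between the groups was far wider than the spread within either, at -1.95 on the log2 scale (adjusted p = 7.7e-17 and standard error 0.12 from limma). IRAK1, IL1R2 and PI3 are also among the genes that the study selected on these arrays. The other lower genes were MAP3K14, the kinase of the non-canonical branch, at -1.04, IKBKG, the adaptor MYD88 at -0.43 and the kinase MAP3K7 at -0.42. After quantile normalization only IRAK1 of these 5 passed (adjusted p between 0.059 and 0.088 from limma for the other 4), with MYD88 at -0.25 and MAP3K7 at -0.26.

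Of 10 tested receptors, 2 were lower and 2 were higher (20% each, against 22.5% and 12.4% of all tested genes). IL1R2, a decoy receptor that binds interleukin 1 without signalling, had scaled signals of 1.92, 1.63 and 3.17 in resistant cells, against 8.19, 7.81 and 8.84 in sensitive cells. Its log2 fold change was -1.95 (standard error 0.23, adjusted p = 7.7e-09 from limma). TLR3, a receptor of double-stranded RNA, was at -1.76, the lipopolysaccharide receptor TLR4 at 0.74 and the TNF receptor TNFRSF1A at 0.50. TLR3 averaged 0.679 in resistant and 1.92 in sensitive cells, so that it passed the filter through the sensitive cells, and with 1 added to each scaled signal it was at -0.83. When all probe sets of a gene were averaged, neither TLR3 (-1.29, adjusted p = 0.061 from limma) nor TLR4 (0.35, adjusted p = 0.41 from limma) passed. Of 6 tested inducing cytokines only IL18 passed, at 0.81, and TNF was under the filter. The groups of IL18 overlapped, with 7.09, 5.43 and 3.27 in resistant cells, against 2.37, 2.86 and 3.45 in sensitive cells.

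Of 8 tested inhibitors besides the feedback genes above, NFKBIB and TNIP2 were lower (25%, against 22.5% of all tested genes) and none was higher. NFKBIB encodes another IκB protein and was at -0.93 (adjusted p = 0.00060 and standard error 0.21 from limma) at its brightest probe set, but at -0.06 with the mean of its probe sets, which therefore disagree. TNIP2, which encodes a partner of A20, was at -0.43, and did not pass with the mean of its probe sets (-0.32, adjusted p = 0.12 from limma) or after quantile normalization (-0.26, adjusted p = 0.064 from limma).

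Of 19 tested targets outside the group of 10, 6 were lower and 2 were higher. The shares were 31.6% and 10.5%, against 22.5% and 12.4% of all tested genes. PI3, which encodes the secreted protease inhibitor elafin, had scaled signals of 6.01, 3.38 and 4.76 in resistant cells, against 20.1, 13.2 and 16.5 in sensitive cells (log2 fold change -1.83, standard error 0.20, adjusted p = 8.7e-10 from limma). SLPI, another secreted protease inhibitor of mucosal surfaces, was at -0.93. Complement factor B (CFB) was at -1.56 and PTGS2, the inducible cyclooxygenase, at -1.54. IER3 and CFLAR, both known as inhibitors of cell death, were at -0.85 and -0.51. The higher targets were TNFAIP2 at 0.93 and LAMB3, a laminin chain, at 0.69, and TNFAIP2 was at -0.17 with the mean of its probe sets.

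Other chemokines and their receptors were mostly dim. Of 13 other chemokines with a probe set 3 were tested. CX3CL1, a membrane-bound chemokine, and CCL28, a chemokine of mucosal epithelium, were higher at 0.87 and 0.81. These were 66.7% of the 3, against 12.4% of all tested genes, and none was lower, against 22.5%. CCL28 had scaled signals of 7.06, 6.48 and 3.80 in resistant cells, against 3.58, 3.01 and 3.01 in sensitive cells. Of 7 chemokine receptors only CXCR4, the receptor of CXCL12, was tested, and it was higher at 0.53. Shares of 3 genes and of 1 gene cannot be set firmly against those of all genes. When all probe sets of a gene were averaged, neither CXCR4 (0.34, adjusted p = 0.075 from limma) nor CCL28 (0.71, adjusted p = 0.064 from limma) passed. The receptors CXCR1, CXCR2 and CCR6 for the chemokines of the group were under the filter.

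**Figure D4:**
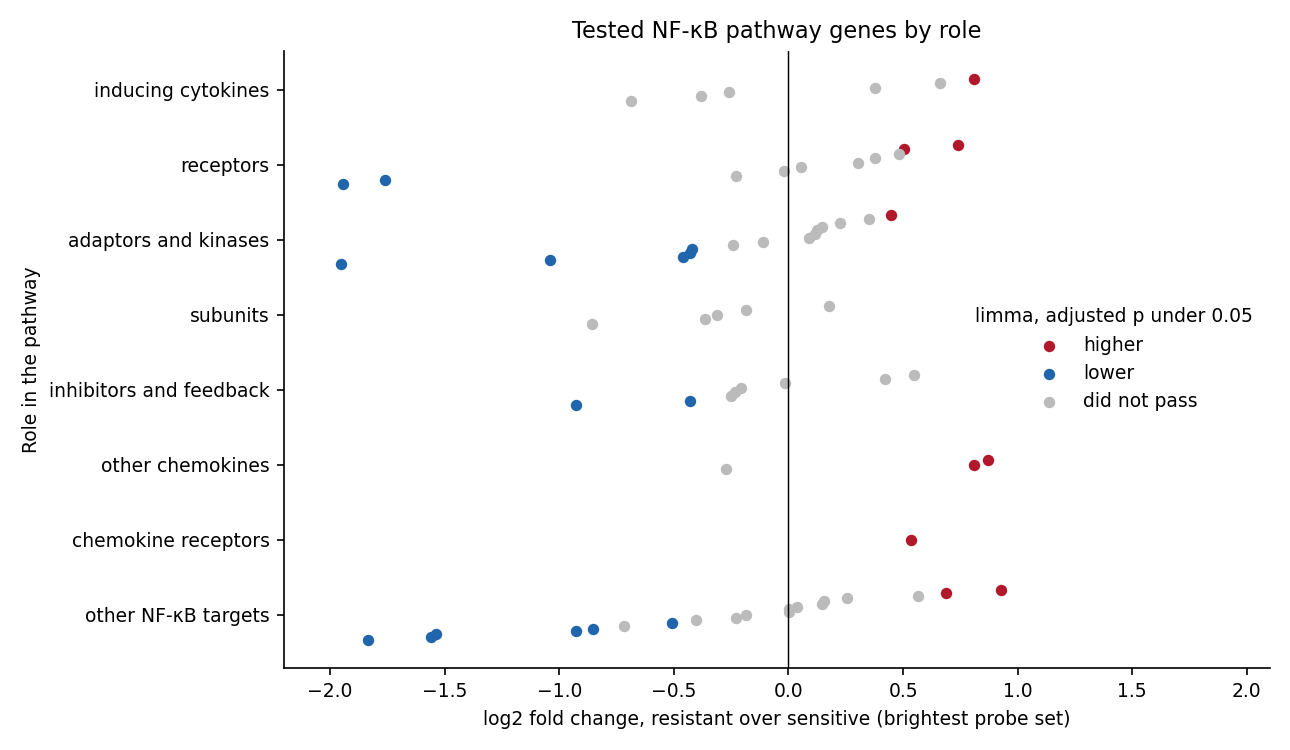
Log2 fold change, resistant over sensitive, for the 66 tested pathway genes by role, each dot a gene at its brightest probe set, red where higher, blue where lower and grey where the test was not passed. The lowest dots are IRAK1 and IL1R2 at -1.95, none of the 5 subunits passed, and the higher genes all lie under 1.

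Of the 24 called pathway genes, 11 kept their call without each array in turn. These were IL1R2, IRAK1, NFKBIB, CFLAR, IER3, PTGS2, TNFAIP2, LAMB3, CFB, SLPI and PI3, with CFB at -0.97 without resistant replicate 3. Without resistant replicate 1 the calls of IL18, TNFRSF1A, TLR3 (-1.15), TLR4, MAP3K14 (-0.55), CHUK and CX3CL1 ended (adjusted p between 0.052 and 0.21 from limma), and MAP3K7 was at -0.78. Without resistant replicate 2 those of IL18, MAP3K7, IKBKG, TNIP2 and CCL28 ended (0.060 to 0.18). Without resistant replicate 3 those of TLR4, MYD88, MAP3K7, CHUK, TNIP2 and CX3CL1 ended (0.054 to 0.19). Without sensitive replicate 1 those of TLR3, TLR4, MYD88, MAP3K7, MAP3K14, IKBKG and TNIP2 ended (0.061 to 0.11). Without sensitive replicate 2 those of TNFRSF1A, TLR4, MYD88, MAP3K7, MAP3K14, CHUK, IKBKG, TNIP2 and CXCR4 ended (0.056 to 0.25). Without sensitive replicate 3 those of TNFRSF1A, TLR4, MYD88, MAP3K7, MAP3K14, CHUK and TNIP2 ended (0.051 to 0.17).

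Other scaling, filter and probe set choices, and limma without the trend, ended the calls of 15 of the 24 pathway genes in at least 1 setting. Besides the losses above, those of IL18, TNFRSF1A, TLR4, MAP3K7, MAP3K14, CHUK and IKBKG ended both with no filter and with limma without the trend, as did that of CX3CL1 with no filter and those of TNIP2 and TNFAIP2 without the trend. The calls of MAP3K14 and IKBKG ended with scaling to the median of the filtered probe sets, that of MAP3K14 with no further scaling and that of IKBKG with averaged probe sets. The other 9, which are IL1R2, IRAK1, CFLAR, IER3, PTGS2, LAMB3, CFB, SLPI and PI3, kept their call in each of these settings that tested them and without each array in turn. The methods' t-test with unequal variances ended all 9 calls, and that with equal variances ended those of CFLAR, LAMB3, CFB and SLPI. With 1 added to each scaled signal CFB was at -0.91, PTGS2 at -0.98 and MAP3K14 at -0.59, and all 3 passed.

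The arrays were of like brightness, with median signals of 13.3 to 16.9 in resistant and 14.2 to 15.4 in sensitive cells. Precision is limited by there being only 6 arrays. The 3′ to 5′ signal ratio of ACTB, a sign of RNA integrity, was 1.17 to 1.30 in resistant and 1.12 to 1.17 in sensitive cells, while that of GAPDH was 0.980 to 1.04 in resistant and 1.00 to 1.01 in sensitive cells. Of 12 colon epithelial markers, EPCAM, VIL1, KRT8, KRT18, KRT19, KRT20 and LGALS4 were bright in both cell lines, while CDX1 and CDX2 were under the array median on all 6 arrays. The summed scaled signal of these 12 was 1598 to 1798 in resistant and 2062 to 2274 in sensitive cells. Among the 9 tested, 6 were lower and 1 was higher (66.7% and 11.1%, against 22.5% and 12.4% of all tested genes). The 12 measured leukocyte markers summed to 383 to 417 in resistant and 413 to 465 in sensitive cells, nearly all of it LYZ (mean 398 in resistant and 432 in sensitive cells). The leukocyte marker PTPRC averaged 0.450 in resistant and 0.365 in sensitive cells. CD14 was lower in resistant cells (log2 fold change -2.81, adjusted p = 0.0013 from limma). It averaged 0.463 in resistant and 2.41 in sensitive cells, so that it passed the filter through the sensitive cells alone. CD2, under the filter, averaged 0.744 in resistant and 0.140 in sensitive cells with no overlap. The 8 fibroblast markers summed to 14.8 to 18.3 in resistant and 6.27 to 6.87 in sensitive cells, with COL1A1 higher at 4.03. COL1A1 averaged 11.8 in resistant and 0.740 in sensitive cells, so that it passed the filter through the resistant cells alone. The fibroblast marker LUM, under the filter, went the other way, with a mean of 0.127 in resistant and 1.63 in sensitive cells and no overlap. The 6 endothelial markers summed to 3.39 to 3.68 in resistant and 2.88 to 3.36 in sensitive cells. None of these lists was at 0 as a whole, and the part of RNA integrity and of these markers in the results above was not tested.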

How the data were processed

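The deposited values of the 6 arrays are linear intensities that the authors computed with MAS5, with one scaling over each array, and no source used here gives a MAS5 version. Division by the array median, a later step of the study, was applied here, and values under 0.01 were set to 0.01. The log2 values went into limma 3.58.1 under R 4.3.3 (lmFit, then eBayes with trend). The 62 control probe sets were left out. Symbols of the platform annotation were updated through Entrez identifiers (41037 of 41091 probe sets with 1 gene matched), and none was taken from the 1801 with several genes. The filter kept 26833 probe sets whose scaled signal averaged at least 1, and for genes the brightest one entered a single fit of 11835 genes. Calls needed an adjusted p under 0.05 (Benjamini-Hochberg over all). Figures were drawn with matplotlib 3.10.9.

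The 10 genes, the pathway and marker lists and the alternatives were chosen with earlier results of these data known. Named pathway genes are, per role, up to 3 with the largest called change and no overlap between the groups. The other called genes and the subunits were named after their values were seen. The likeness to CCL20 was read for the called gene of the 10 with the largest change. The fit was tested on simulated probe set values with planted changes and independent noise. That simulation held no shift shared over an array. Scanner files and scan dates were not used here.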

Additional observations from a re-analysis of the deposited data

How the results depend on the processing

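The counts of the 10 genes (0 higher, 3 lower) were 0 and 0 under the t-test with unequal variances. With the filter set at 2 instead of 1, which leaves out CCL20 and TNFAIP3, 1 was lower. With each array left out, 0 to 1 were higher and 3 to 3 lower. NFKBIA, not called, was at 0.093 after quantile normalization, at 0.026 with scaling to the median of the filtered probe sets, and between -0.28 (without resistant replicate 1) and 0.054 (without resistant replicate 2) with each array left out, with 0.00017 without resistant replicate 3. Of the pathway genes (9 higher, 15 lower), 16 were higher and 10 lower after quantile normalization, and 16 and 13 with scaling to the median of the filtered probe sets. With no filter, when 104 were tested, 5 were higher and 14 lower. With limma without the trend 4 and 12 were called, and with the mean of all probe sets 5 and 13. The t-test with equal variances called 1 higher and 6 lower, and that with unequal variances 0 and 0. With a 3-fold threshold 0 were higher and 4 lower, against 230 and 259 of all genes. With each array left out, 5 to 8 were higher and 9 to 19 lower, against 1138 to 1510 and 1909 to 3584 of all genes. Over all genes 2501 were higher and 2227 lower after quantile normalization, and 2296 and 2534 with scaling to the filtered median. With no filter 1208 and 2263 of 19775 genes were called, without the trend 1122 and 1885, and with averaged probe sets 1379 and 2560. TNFAIP2 was at -0.17 with the mean of its probe sets. The cause of these shifts was not tested.

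Replicate numbers were the same in both groups. Deviations of same-numbered arrays correlated at 0.14, 0.0072 and 0.079, and those of differently numbered arrays at -0.11 to 0.033. Not every array was closest to its own number. With 3 arrays per group, each centred on its group mean, these values cannot decide whether the numbers pair the samples. With a replicate block 0 of the 10 genes were higher and 3 lower. Of the pathway genes 11 were higher and 17 lower, NFKB1 among the lower ones (adjusted p = 0.041 from limma). Of all 11835 genes 1775 were higher and 3267 lower with the block. Over all genes (1472 higher, 2659 lower) the t-test with equal variances called 574 and 1123, and that with unequal variances 76 and 134. Resistant signals under the array median limit the values of CCL20, TNFAIP3, TLR3, IL32 and CD14, and sensitive signals under it limit that of COL1A1.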

Other observations

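Some chemokines with no test, since they were under the filter on dim signals, had groups that did not overlap. This was so for 6 of the 38 untested pathway genes, and for 46.2% of all tested genes. CXCL11, a chemokine induced by interferon, had scaled signals of 0.128, 0.256 and 0.0651 in resistant cells, against 1.92, 1.36 and 2.00 in sensitive cells. In a fit with no filter its log2 fold change was -3.75 (standard error 0.72, adjusted p = 0.0016 from limma). CCL5, a chemokine for T cells and monocytes, had 0.436, 0.0625 and 0.0533 in resistant cells, against 0.937, 0.660 and 0.695 in sensitive cells, and was at -2.74 (adjusted p = 0.048 and standard error 0.91 from limma) in that fit. TNFAIP6, which encodes a hyaluronan-binding protein, averaged 0.658 in resistant and 0.103 in sensitive cells and was at 2.61 (adjusted p = 0.041 and standard error 0.83 from limma). The chemokines CXCL6 and CXCL12 did not overlap either, but did not pass in that fit (adjusted p = 0.18 and 0.38 from limma). Only CXCL11, CCL5 and TNFAIP6, 3 of 38 untested pathway genes, passed without the filter. They were 1 higher and 2 lower, against 1208 higher and 2263 lower (6.11% and 11.4%) of all 19775 genes. In resistant cells all 3 lay under the array median on every array, and CCL5 and TNFAIP6 did so on all 6 arrays. CXCL11, CCL5 and TNFAIP6 were picked after their values were seen.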
